A study of Rattus norvegicus with 6 samples.

Results

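The homeostatic and membrane-bound chemokines and their receptors are represented here by 10 genes, 6 ligands and 4 receptors, in the renal cortex of rats dosed with carbon tetrachloride. The ligands are Cxcl12, Cxcl13, Cxcl16, Cx3cl1, Ccl19 and Ccl21, and the receptors are Cxcr4, Cxcr6, Cx3cr1 and Ccr7. They were taken by gene symbol, through the transcript accession that each array probe carries, out of 15645 genes so named on the array. The 10 genes have 16 probes, and each gene is represented by its probe of highest mean signal over the arrays.

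The treated animals were 3 male Sprague-Dawley rats that received carbon tetrachloride, a chlorinated solvent best known as a liver toxicant, at 100 mg/kg/day for 4 weeks. The other 3 male Sprague-Dawley rats received corn oil, the vehicle, for the same 4 weeks, and all rats were 5 weeks old when bought. RNA of the renal cortex of each rat was labelled with the dye Cy3 and measured on a 1-colour Agilent array, so each rat is 1 array and the number of arrays limits the precision. The design text gives another agent, benzyl acetate, and carbon tetrachloride is used here because the series title and every sample label give it.

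Chemokines are small secreted or membrane-anchored proteins that guide cells through receptors coupled to G proteins. The homeostatic ones are made without inflammation and place leukocytes in tissues. Cxcl12 acts through Cxcr4 and serves retention of blood progenitors and growth of vessels, in the kidney those of the glomerulus too. Cxcl13 draws B cells into follicles through Cxcr5, and Ccl19 and Ccl21 draw T cells and dendritic cells through Ccr7. Cxcl16 and Cx3cl1 are made as proteins of the cell surface with a mucin-like stalk and are shed by the proteases Adam10 and Adam17. Their receptors are Cxcr6, on T cells and natural killer T cells, and Cx3cr1, on monocytes, macrophages and the dendritic cells of the kidney.

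The sequences upstream of Cxcl12 and Cxcl13 are shown because the first of these genes is the 1 whose groups did not overlap and the second is the 1 that varied most among rats. Each run holds the 250 bases before the gene start, 5′ to 3′ on the strand of the gene, from RefSeq on the build GRCr8, at chr4:152060531-152060780 on the plus strand for Cxcl12 and chr14:13917921-13918170 on the minus strand for Cxcl13. Capitals mark matches, on either strand, to the GC box GGGCGG or the TATA box TATAAA.
Cxcl12: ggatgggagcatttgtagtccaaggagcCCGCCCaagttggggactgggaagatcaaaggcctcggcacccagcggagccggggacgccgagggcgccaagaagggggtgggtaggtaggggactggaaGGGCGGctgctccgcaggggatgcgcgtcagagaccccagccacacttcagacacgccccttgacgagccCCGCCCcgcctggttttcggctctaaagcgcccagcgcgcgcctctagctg
Cxcl13: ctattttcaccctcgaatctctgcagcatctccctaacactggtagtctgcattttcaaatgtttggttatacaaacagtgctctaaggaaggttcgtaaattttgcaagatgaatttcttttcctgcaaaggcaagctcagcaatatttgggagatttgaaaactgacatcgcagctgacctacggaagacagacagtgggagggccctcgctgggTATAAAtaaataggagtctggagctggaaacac
The Cxcl12 window holds 3 GC boxes, starting 222, 121 and 51 bases before the gene start, and has a GC content of 67.6%. The Cxcl13 window holds no GC box, has a TATA box that starts 33 bases before the gene start, and has a GC content of 43.6%. Over all 33469 windows of the same length in the table, 30.5% hold a GC box and 12.9% a TATA box, and the median GC content is 51.2%. Windows were found for 9 of the 10 genes. Those of Cxcr4 and Cx3cl1 hold both motifs, Cxcr4 with 3 GC boxes and with 2 TATA matches, on opposite strands, that overlap each other. The core of the hypoxia response element, ACGTG, which 16.6% of all windows hold, was also searched on both strands and is in 0 of the 9. The letters of the 3 motifs do not overlap in the Cxcl12 and Cxcl13 windows, and a match is a run of letters, not a site.

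Rats given carbon tetrachloride and rats given corn oil were compared to ask which of these genes differ in the cortex after dosing. None of the 10 genes passed an adjusted p of 0.05 in limma, which adjusts over all 31190 tested transcripts, of which 1 (0.00321%) passed. At an unadjusted p under 0.05, 1 of the 10 genes, Cxcl12, was lower after carbon tetrachloride, where 2.64% of all transcripts were, and 0 were higher, where 3.64% of all were. Values are log2 of the signal relative to the 75th percentile of the same array, so that 0 is the level of that percentile, and differences are carbon tetrachloride minus corn oil. The 3 values of a group are given in the order of replicates 1 to 3.

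The fitted difference was below 0 for 7 of the 10 genes, where it was below 0 for 47.8% of all transcripts. The median over the 10 genes was -0.22, against 0.0073 over all transcripts, and over the 9 genes well above background on every array it was -0.20, with 6 below 0. The median was -0.079 within slide 1, which holds all arrays but carbon tetrachloride replicate 3, and -0.083 if corn oil replicate 1 was left out. The groups did not overlap for 1 gene with carbon tetrachloride lower, where this held for 5.30% of all transcripts, and for 0 genes with carbon tetrachloride higher, where it held for 7.50% of all.

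**Figure D1:**
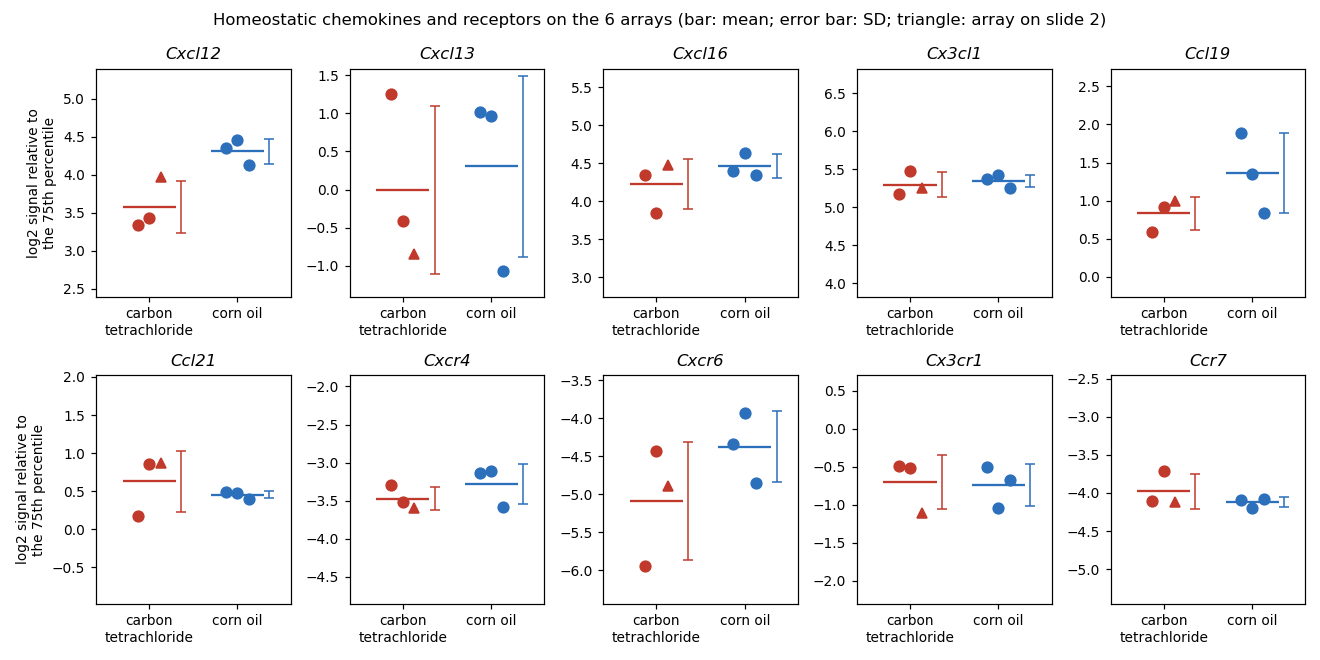
Level of each of the 10 genes on each array, as log2 of the signal relative to the array's 75th percentile, with carbon tetrachloride in red at the left of each panel and corn oil in blue at the right. Lines are group means, error bars are SD (n = 3), the triangle is carbon tetrachloride replicate 3 on slide 2, and the vertical scale starts and ends differently in each panel. Cxcl12 shows 3 red points below the 3 blue points, and Cxcl13 shows high and low points in both groups.

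Among the ligands, Cxcl12 had 3.34, 3.43 and 3.97 on the carbon tetrachloride arrays, against 4.35, 4.45 and 4.13 on the corn oil arrays. Every carbon tetrachloride value lay below every corn oil value, with the nearest pair being carbon tetrachloride replicate 3 and corn oil replicate 3. The mean was 3.58 ± 0.34 on the carbon tetrachloride arrays and 4.31 ± 0.16 on the corn oil arrays (SD, n = 3 each). The log2 difference was -0.73 ± 0.19 (SE; 95% interval -1.19 to -0.27), a level 0.601 times that of corn oil, with an unadjusted p of 0.00806 and a limma adjusted p of 0.737. An exact permutation test of this single difference gave p = 0.1, two-sided, the smallest that 3 rats against 3 allow. On slide 1 alone the difference was -0.93, and there the row of the array on the slide and the treatment cannot be told apart. Over the 6 arrays too, no carbon tetrachloride array shared both slide and row with a corn oil array.

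Cxcl12 has 3 probes, for the transcripts NM_022177 and NM_001033883, and all 3 were lower after carbon tetrachloride with no overlap between the groups. The second probe of NM_022177 had 2.70, 3.09 and 3.34 on the carbon tetrachloride arrays, against 3.67, 3.83 and 3.50 on the corn oil arrays, a difference of -0.62 ± 0.18 (SE). The probe of NM_001033883 had 2.71, 2.86 and 2.99 on the carbon tetrachloride arrays, against 3.08, 3.39 and 3.32 on the corn oil arrays, a difference of -0.41 ± 0.12 (SE). Probes of 1 gene on the same arrays share their RNA and are no replicates of each other. With every probe tested alone, the limma adjusted p of the 3 ranged from 0.742 to 0.747. Centred on their own means, the 3 probes differed by at most 0.39 on any array, on corn oil replicate 1.

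Cxcl13, the attractant of B cells, had 1.25, -0.42 and -0.85 on the carbon tetrachloride arrays, against 1.02, 0.96 and -1.07 on the corn oil arrays. Both groups held high and low values: carbon tetrachloride replicate 1 and corn oil replicates 1 and 2 were high, and the other 3 arrays were low. The range over the 6 arrays was 2.32 on the log2 scale and the SD 1.04, the largest of the 10 genes. The fitted log2 difference was -0.31 ± 0.77 (SE; 95% interval -2.21 to 1.59), with a limma adjusted p of 0.955. Its sign turned to 0.11 without carbon tetrachloride replicate 3 and, in fits that omit 1 corn oil array, to 0.045 without replicate 1 and 0.019 without replicate 2. The other Cxcl13 probe had 0.11, -1.61 and -2.24 on the carbon tetrachloride arrays, against -0.25, -0.27 and -2.31 on the corn oil arrays, the same arrays high and low. Centred on their own means, the 2 probes differed by at most 0.15 on any array.

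Ccl19, a ligand of Ccr7, had 0.58, 0.91 and 1.00 on the carbon tetrachloride arrays, against 1.89, 1.35 and 0.84 on the corn oil arrays. Corn oil replicate 3 lay inside the carbon tetrachloride range, and the other corn oil arrays lay above it. This gave a log2 difference of -0.53 ± 0.28 (SE; 95% interval -1.21 to 0.15), with a limma adjusted p of 0.812, and it was -0.27 without corn oil replicate 1.

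Ccl21, the other ligand of Ccr7, had 0.17, 0.85 and 0.87 on the carbon tetrachloride arrays, against 0.49, 0.47 and 0.40 on the corn oil arrays. The corn oil values lay close together, with an SD of 0.045, and inside the carbon tetrachloride range. Ccl21 differed by 0.18 ± 0.20 (SE; 95% interval -0.32 to 0.67), with a limma adjusted p of 0.884. It was 0.41 without carbon tetrachloride replicate 1, 0.065 without replicate 2 and 0.055 without replicate 3.

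Cxcl16, a ligand of the cell surface, had 4.34, 3.85 and 4.48 on the carbon tetrachloride arrays, against 4.40, 4.64 and 4.34 on the corn oil arrays. Carbon tetrachloride replicate 2 was the low array, and the other 5 lay between 4.34 and 4.64. Cxcl16 differed by -0.24 ± 0.18 (SE; 95% interval -0.69 to 0.21), with a limma adjusted p of 0.841, and the difference was -0.054 without carbon tetrachloride replicate 2. It was -0.15 if corn oil replicate 2 was left out and -0.37 within slide 1.

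Cx3cl1, the other ligand of the cell surface, varied least of the 10 genes, with an SD of 0.12 over the 6 arrays. It had 5.17, 5.48 and 5.25 on the carbon tetrachloride arrays, against 5.37, 5.42 and 5.26 on the corn oil arrays. The groups overlapped, and the log2 difference was -0.047 ± 0.10 (SE; 95% interval -0.30 to 0.21), with a limma adjusted p of 0.945. Its second probe had a difference of 0.041 ± 0.12 (SE), the opposite sign, and the 2 probes, centred, differed by at most 0.23 on any array. Without carbon tetrachloride replicate 1 the difference of the first probe was 0.02.

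**Figure D2:**
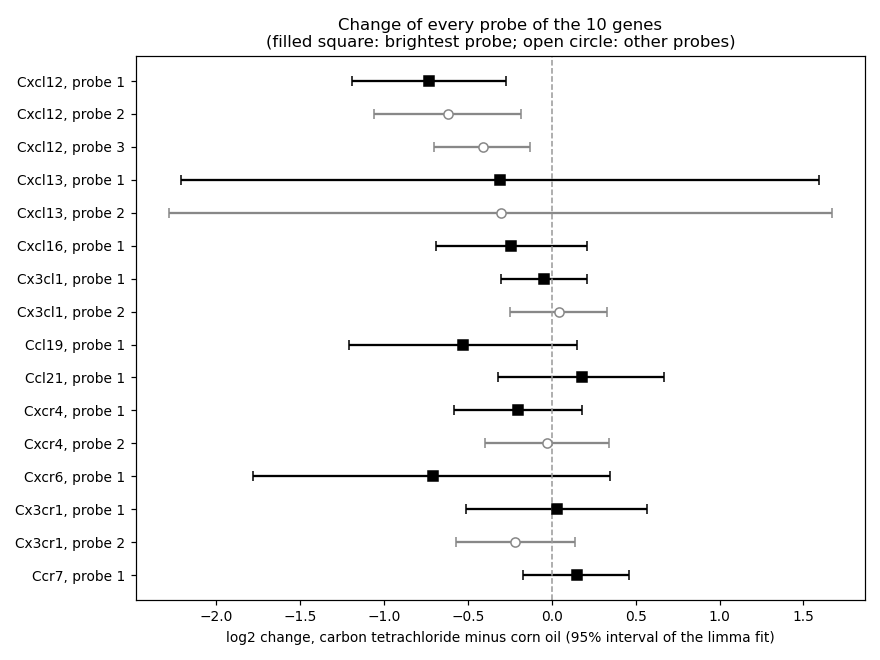
Log2 difference of each of the 16 probes of the 10 genes, carbon tetrachloride minus corn oil, with the 95% interval of the limma fit. Filled squares are the brightest probe of a gene, fitted with 1 probe a gene, and open circles are the other probes, fitted with every probe. The intervals of the 3 Cxcl12 probes lie below 0 before adjustment, and the interval of every other probe includes 0.

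Among the receptors, Cxcr4, which binds Cxcl12, had -3.30, -3.52 and -3.60 on the carbon tetrachloride arrays, against -3.14, -3.11 and -3.58 on the corn oil arrays. The groups overlapped through corn oil replicate 3. Cxcr4 differed by -0.20 ± 0.16 (SE; 95% interval -0.58 to 0.18), with a limma adjusted p of 0.844. Its second probe had a difference of -0.028 ± 0.15 (SE). Without corn oil replicate 3 the difference of the first probe was -0.35, and without corn oil replicate 1 or 2 it was -0.13 or -0.12.

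Cxcr6, the receptor of Cxcl16, had -5.95, -4.43 and -4.89 on the carbon tetrachloride arrays, against -4.34, -3.93 and -4.86 on the corn oil arrays. It is the 1 gene of the 10 that was not well above background on every array, since carbon tetrachloride replicate 1, its lowest value, was not. The log2 difference was -0.71 ± 0.43 (SE; 95% interval -1.78 to 0.35), with a limma adjusted p of 0.830. It was -0.29 without carbon tetrachloride replicate 1, and -0.15 with another background correction, normexp, scaled in the same way.

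Cx3cr1, the receptor of Cx3cl1, had -0.49, -0.51 and -1.11 on the carbon tetrachloride arrays, against -0.50, -1.04 and -0.67 on the corn oil arrays. Each group held 1 array below -1 and the groups overlapped throughout. Cx3cr1 differed by 0.031 ± 0.22 (SE; 95% interval -0.51 to 0.57), with a limma adjusted p of 0.989. Its second probe had a difference of -0.22 ± 0.15 (SE), and the 2 probes, centred, differed by up to 0.56, on carbon tetrachloride replicate 1. The difference of the first probe was 0.23 without carbon tetrachloride replicate 3, and it turned to -0.076 and -0.065 without carbon tetrachloride replicates 1 and 2 and to -0.12 if corn oil replicate 2 was left out.

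Ccr7, the receptor of Ccl19 and Ccl21, had -4.10, -3.71 and -4.12 on the carbon tetrachloride arrays, against -4.09, -4.20 and -4.08 on the corn oil arrays. Carbon tetrachloride replicate 2 was high and the other 5 arrays lay close together. Ccr7 differed by 0.15 ± 0.13 (SE; 95% interval -0.17 to 0.46), with a limma adjusted p of 0.853, and it was 0.014 without carbon tetrachloride replicate 2. The interval of each of the 4 receptors includes 0, which does not show that their levels were equal.

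For the 3 genes of largest SD among those well above background on every array, the nearest profiles were sought among 12324 other genes with a symbol, by the root mean square difference of log2 values centred on each gene's own mean over the 6 arrays. For Cxcl13 they were Depp1 at 0.30 and Apold1 at 0.31, where the median over all those genes was 0.96. Depp1 had 2.06, 0.10 and -0.38 on the carbon tetrachloride arrays, against 2.15, 2.15 and -0.57 on the corn oil arrays. The high and low arrays of both genes were those of Cxcl13, and neither gene had a low unadjusted p between the groups (0.525 for Depp1 and 0.658 for Apold1).

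For Cxcl12 the nearest profiles were Mfap4, a gene of microfibrils in the matrix, at 0.11, and Zap70, a kinase of T cell receptor signalling, at 0.15, where the median was 0.45. Mfap4 had a difference of -0.73 and Zap70 of -0.55. For Ccl19 they were Spata1 at 0.07 and Clmp at 0.10, where the median was 0.44, with differences of -0.54 and -0.57. The likeness describes these 6 arrays, which share 1 platform and 1 scaling, and was not tested.

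**Figure D3:**
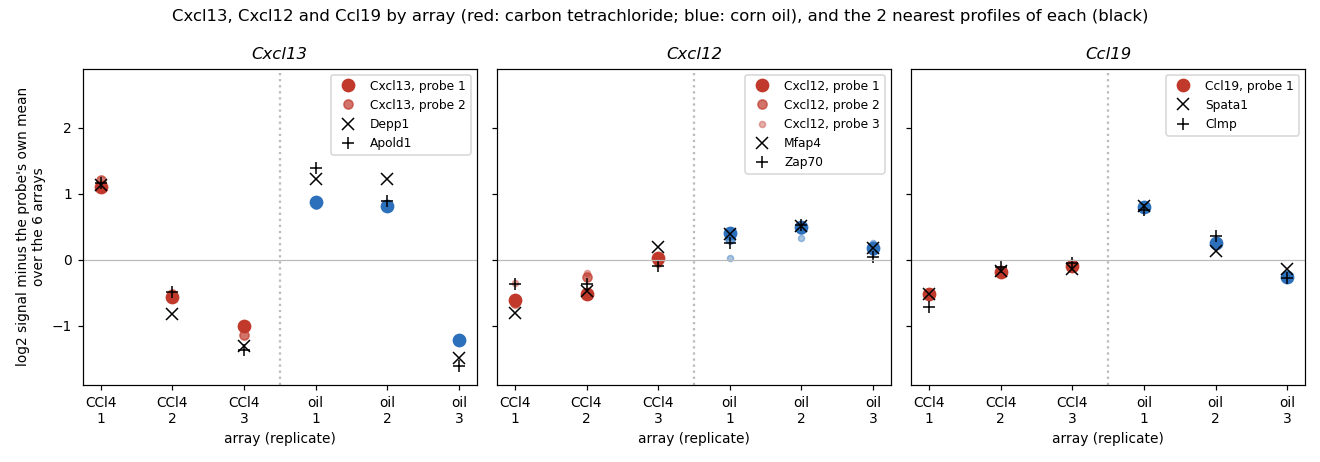
Profiles of Cxcl13, Cxcl12 and Ccl19 over the 6 arrays, as log2 signal minus the probe's own mean, with carbon tetrachloride at the left in red and corn oil at the right in blue, paler small points for the other probes, and the 2 nearest genes of each in black. Cxcl13, Depp1 and Apold1 are high on carbon tetrachloride replicate 1 and corn oil replicates 1 and 2 and low on the other 3 arrays.

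The rest of the chemokine system was described from lists that hold no member. Of 15 tested other CC chemokines, 11 had a difference below 0 and 4 above, with a median of -0.18. Ccl5, an attractant of T cells, had 1.33, 1.28 and 1.55 on the carbon tetrachloride arrays, against 1.99, 1.73 and 2.17 on the corn oil arrays, a difference of -0.58 ± 0.14 (SE) without overlap. It was the 1 gene of this list that was lower without overlap, where 5.30% of all transcripts were. Ccl28, with a difference of 0.071 ± 0.06 (SE), was the 1 that was higher without overlap, where 7.50% of all were. Ccl2, an attractant of monocytes, had a difference of -0.68 ± 0.27 (SE). Of 8 tested other CXC and XC chemokines, 7 had a difference below 0, with a median of -0.33, and 4 did not overlap, all with carbon tetrachloride lower, where 5.30% of all transcripts did so. Cxcl9, induced by interferon gamma, had -1.03 ± 0.25 and Xcl1, an attractant of cross-presenting dendritic cells, -0.37 ± 0.11 (SE). In limma 0 of either list passed the threshold. At an unadjusted p under 0.05 there were 2 of the CC and 3 of the CXC and XC chemokines. All had carbon tetrachloride lower, where 2.64% of all transcripts were lower at that p.

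All 6 tested other chemokine receptors had a difference below 0, with a median of -0.29 and 0 past the limma threshold. At an unadjusted p under 0.05 there was 1 of the 6, where 2.64% of all transcripts were lower. Ccr1, a receptor of inflammatory CC chemokines, had -0.31 ± 0.19 (SE). Its signal was near background, well above it on 3 carbon tetrachloride arrays and on 2 corn oil arrays. Ccr3, Ccr4, Cxcr1 and Xcr1 were not well above background on any array. Of the partners of the 10 genes, the 5 tested had a median of 0.079, among them Ackr3, the scavenger receptor of Cxcl12, with 0.13 ± 0.15 (SE), and Dpp4, the peptidase that inactivates Cxcl12, with 0.079 ± 0.094 (SE), and 0 had an unadjusted p under 0.05. Cxcr5, the receptor of Cxcl13, was not well above background on any array. Of 9 tested organisers of lymphoid tissue, 6 had a difference below 0 with a median of -0.025. Ltb, a lymphotoxin chain that induces Cxcl13, Ccl19 and Ccl21 in lymphoid stroma, had -0.48 ± 0.15 (SE). Its groups did not overlap, where 5.30% of all transcripts were lower without overlap. It was the 1 of the 9 with an unadjusted p under 0.05, where 2.64% of all transcripts were lower. Il7r, the receptor of interleukin 7, had -0.26 ± 0.14 (SE). None of them passed the limma threshold.

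**Figure D4:**
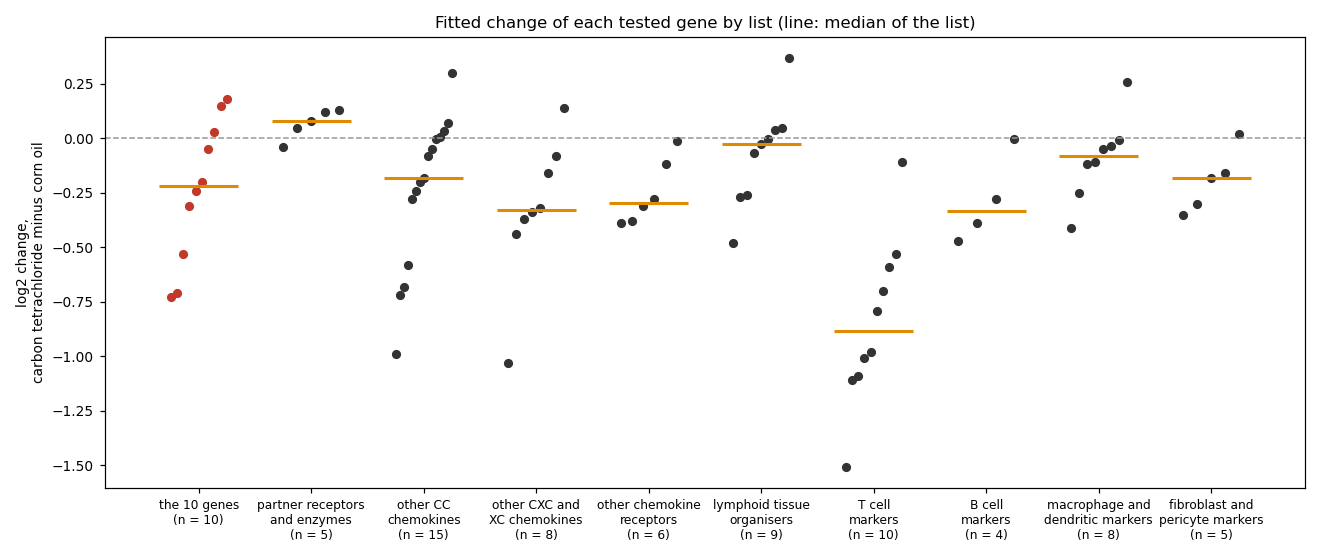
Log2 difference, carbon tetrachloride minus corn oil, of each tested gene of the 10 (red) and of the lists of the chemokine system and of leukocyte and stromal markers (dark grey), with a line at each median. The 10 genes have a median of -0.22 and the T cell markers lie lowest, with a median of -0.89 over all 10 and of -0.70 over the 7 well above background on every array.

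Markers of leukocytes and stroma are given because these cells make the ligands or carry the receptors, and in bulk cortex fewer cells of a type and less RNA per cell cannot be told apart. Of the 10 tested T cell markers, 7 were well above background on every array. All 7 had a difference below 0, with a median of -0.70, and 6 did not overlap, where 5.30% of all transcripts had carbon tetrachloride lower without overlap. At an unadjusted p under 0.05 there were 6, where 2.64% of all transcripts were lower, and 0 passed the limma threshold, with Cd8b at -0.98 ± 0.086 and Cd247 at -0.79 ± 0.077 (SE). The other 3, Cd2, Cd3e and Cd5, entered the test through the corn oil arrays, where they are higher, and Cd5 was not well above background on any carbon tetrachloride array. The median over all 10 was -0.89. The summed signal of the 10, in units of each array's 75th percentile, was 1.58 to 1.69 on the carbon tetrachloride arrays and 2.36 to 2.81 on the corn oil arrays. This sum ran in the direction of 7 of the 10 chemokine and receptor genes, among them Cxcl12, Ccl19 and Cxcr6. The other 3 had differences above 0, with Ccl21 at 0.18, Cx3cr1 at 0.031 and Ccr7 at 0.15. The part of the T cell markers in these differences was not tested.

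Macrophage and dendritic cell markers had 7 of 8 tested genes below 0, but the median was -0.078 and 0 of the 8 were without overlap. Their mean log2 level was 1.48, 1.36 and 1.41 on the carbon tetrachloride arrays and 1.55, 1.67 and 1.31 on the corn oil arrays, and these overlap. The median was 0.071 without corn oil replicate 2 and -0.28 without corn oil replicate 3. Their summed signal was 50.6 to 60.8 on the carbon tetrachloride arrays and 66.0 to 73.7 on the corn oil arrays. Without Cd74, the brightest of them, which had a difference of -0.41 ± 0.16 (SE), the sum was 27.7, 25.0 and 24.4 on the carbon tetrachloride arrays and 30.3, 32.8 and 21.8 on the corn oil arrays, and the groups overlapped.

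B cell markers are given beside Cxcl13. Of the 5 on the array 4 were tested, all 4 with a difference below 0 and a median of -0.34, and Blk was not well above background on any array. The summed signal of the 5 was 1.73, 1.1 and 1.44 on the carbon tetrachloride arrays and 2.01, 1.56 and 1.95 on the corn oil arrays, and the mean log2 level of the 4 was -3.26, -3.53 and -3.78 on the carbon tetrachloride arrays and -3.04, -3.33 and -3.34 on the corn oil arrays. Within carbon tetrachloride, replicate 1 was the highest for these markers and for Cxcl13, while corn oil replicate 3, the lowest array for Cxcl13, had the second highest sum of the 6. Pax5 had a difference of -0.39 ± 0.20 (SE), and the part of these markers in the Cxcl13 values was not tested. Fibroblast and pericyte markers, of cells that make Cxcl12 in many organs, had 4 of 5 tested below 0, a median of -0.18, and a summed signal of 15.4 to 21.6 on the carbon tetrachloride arrays and 18.9 to 24.2 on the corn oil arrays. Col3a1 had -0.35 ± 0.16 (SE) and Col1a1 -0.30 ± 0.26 (SE). Their part in the Cxcl12 difference was not tested.

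Between 68.5% and 72.1% of the 61537 probes were well above background on an array, and correlations between arrays ran from 0.9914 to 0.9928 within carbon tetrachloride, from 0.9917 to 0.9932 within corn oil and from 0.9907 to 0.9937 between them. Markers of cortical tubules, among them Lrp2 and Umod, were all 7 well above background on every array, and their summed signal was 1080 to 1240 on the carbon tetrachloride arrays and 1140 to 1180 on the corn oil arrays, with a median difference of 0.0049. Carbon tetrachloride replicate 3 lay alone on slide 2, and the other 5 arrays shared slide 1.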

How the data were processed

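Renal cortex RNA of 6 rats was read on 1-colour Agilent arrays, with spot intensity extracted by the authors with Agilent Feature Extraction 10.7.1.1, per the file headers; the submitters' processing notes give 10.7. The processed signal is a linear intensity with background subtracted. In the deposited value table, it is scaled by a constant for each array (1015 to 1092, near its 75th percentile). The table's medians are 0.116, 0.115 and 0.111 for carbon tetrachloride replicates 1 to 3 and 0.118, 0.111 and 0.114 for corn oil replicates 1 to 3, and its scale, centring and direction follow from this match.

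Log2 processed signal was scaled to each array's 75th percentile, without the 1439 control spots and the 0 to 25 outlier spots an array. Through its accession and a RefSeq table of GRCr8, used for names, 28206 of 61537 probes (45.8%) got a symbol. The array design rests on rn4, per the file headers. The brightest probe stood for a gene, and transcripts were tested where every array of at least 1 group lay well above background. The fit was lmFit and eBayes of limma 3.58.1 (R 4.3.3), two-sided, with Benjamini-Hochberg adjustment over 31190 transcripts. Samples are biological replicates per the design text, and p-values rest on the spread among rats. The 10 genes and all lists were chosen with earlier results of these data known. From each list the text names its genes past the threshold, or else the 2 of smallest p, and some of these are not reported here. The normexp alternative used the median spot signal and median local background. Tested on simulated data with spreads from this comparison, the fit recovered 78% of 100 planted changes of 1 and 96% of 100 planted changes of 2 (log2) among 31166 transcripts, which is no estimate of its power.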

Additional observations from a re-analysis of the deposited data

How the results depend on the processing

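Of the 10 genes, 0 passed the limma threshold in any of the 20 alternative settings, and 0 passed at an adjusted p of 0.10, while 1 to 3 had an unadjusted p under 0.05. Cxcr6 was not tested under the strictest filter on dim probes. The count of transcripts past 0.05, which is 1 above, was 0 under normexp (both scalings), under no dim-probe filter or the strictest one, with trend and robust variance, with the replicate block, with a slide block and on slide 1 alone, and 0 to 2 without single arrays, while 1518 to 2325 transcripts had an unadjusted p under 0.05. A slide block equals slide 1 alone and equals the fit without carbon tetrachloride replicate 3, since that is the only array of slide 2. The 20 settings are therefore not all distinct, and they share the same rats. Cxcl12 kept its sign in all 20, from -0.93 to -0.41, with adjusted p from 0.478 to 0.979. The median of the 10 genes was -0.079 with the slide block or on slide 1 alone and -0.32 to -0.079 without single arrays. Cxcl13 turned to 0.11 with the slide block or on slide 1 alone, and ran from -1.0 to 0.11 without single arrays. Cx3cl1 turned to 0.041 with its dimmest probe and ran from -0.14 to 0.02 without single arrays. Cx3cr1 turned to -0.093 with the mean of its probes and to -0.22 with its dimmest probe, and ran from -0.12 to 0.23 without single arrays. The cause of these turns was not tested. With the replicate block Cxcl12 was -0.73 with an adjusted p of 0.831, and the block changed no call of the 10 genes. Deviations of same-numbered arrays correlated at -0.023, -0.097 and -0.079, and no array correlated best with that of its own number. So few arrays cannot show whether rats of the same number shared more than the number. Chosen after seeing the data were the sums without a list's brightest gene and the list medians over genes well above background on every array, which differ from those above for T cell markers (-0.70), other CC chemokines (-0.13) and other chemokine receptors (-0.28). For Cxcr4, Cxcr6 and Ccr7, the dimmest of the 10, signal near background limits the values.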

Other observations

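In the other cell type lists 0 genes passed the limma threshold. Natural killer cell markers had 5 of 5 tested genes below 0 and a median of -0.22. Their summed signal was 2.34 to 2.70 on the carbon tetrachloride arrays and 2.66 to 2.87 on the corn oil arrays. Klrd1 had a difference of -0.47 ± 0.098 and Nkg7 of -0.23 ± 0.065 (SE, n = 3 per group). At an unadjusted p under 0.05 there were 2 of the 5, where 2.64% of all transcripts were lower. Lymphatic endothelium, which makes Ccl21, had a median of 0.19 over 4 tested markers and a summed signal of 5.53 to 7.63 on the carbon tetrachloride arrays and 4.96 to 6.24 on the corn oil arrays. Most of that sum is Pdpn, the brightest of them. Without Pdpn the sum was 1.42, 1.40 and 1.17 on the carbon tetrachloride arrays and 1.18, 1.54 and 1.35 on the corn oil arrays, and the groups overlapped. The lymphatic markers differed in sign, with Reln at -0.59 ± 0.14, Pdpn at 0.39 ± 0.17 and Prox1 not well above background on any array.

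Blood endothelium markers had 6 of 7 genes above 0, a median of 0.076 and a summed signal of 30.2 to 33.2 on the carbon tetrachloride arrays and 28.0 to 33.6 on the corn oil arrays, with Nos3 at 0.40 ± 0.072 and Tek at 0.23 ± 0.076 (SE). Podocyte markers had a median of 0.062, with Nphs1 at 0.20 ± 0.13 (SE), and a summed signal of 29.8 to 32.8 on the carbon tetrachloride arrays and 25.1 to 32.9 on the corn oil arrays. Neutrophil markers had a median of -0.061 and a summed signal of 0.349 to 0.798 on the carbon tetrachloride arrays and 0.500 to 0.626 on the corn oil arrays. Red cell and platelet markers had a median of 0.051 and a summed signal of 137 to 250 on the carbon tetrachloride arrays and 170 to 229 on the corn oil arrays.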
